A study of Zea mays with 2 samples.

Results

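The most abundant transcripts of maize (Zea mays) endosperm were examined in the fl4 (floury4) mutant and in the wild type. A feature counted as abundant when it reached at least 300 FPKM in either library and its span, from first to last base, was at least 300 bp long. FPKM is the number of sequenced fragments on a feature per unit of its length and of the mapped total. Of 65527 features with a readable position, 305 (0.465%) met the rule. Of these 305 features, 294 were above 0 in both libraries, 11 had a wild-type value of exactly 0, and 0 were listed at 0 in fl4, against backgrounds of 0.460% and 0.355% of the features with at least 1 FPKM and a span of 300 bp or longer. Both libraries were made from endosperm at 19 days after pollination, and the labels give 1 library for the fl4 mutant and 1 for the wild type. The sources used here do not give the inbred background. The series design mentions triplicates, but each genotype has a single value per feature. No value therefore has an error and no test was possible, so every difference describes this pair of libraries. The levels themselves chose the features, and levels and ratios are given as a description.

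At this stage the endosperm lays down starch and zeins. Zeins are the prolamin storage proteins of the maize kernel and are deposited in protein bodies of the endoplasmic reticulum. Alpha-zeins are encoded by families of near-identical genes that lie in tandem clusters, while gamma-, beta- and delta-zeins have few copies. Kernels of floury4 are opaque and soft, and the mutation is reported to affect an alpha-zein. In the RefSeq gene table of the assembly Zm-B73-REFERENCE-NAM-5.0, 45 genes carry a zein symbol of the z1A to z1D (alpha), gz (gamma) or bz (beta) type. Of these, 27 are on chromosome 4, 11 on chromosome 7, 5 on chromosome 1, and 1 each on chromosomes 2 and 6. The same table gives fl4 as a synonym of z1A1_6, on chromosome 4, and lists the gamma-zein genes gz50 and gz27 of chromosome 7 as neighbours. The files carry positions and no gene names, and the sources used here do not give their genome build. Positions were not converted between assemblies, so no feature below is called a zein and the labelled tissue was not checked against marker genes. Features are named by the positions in the files.

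The summed FPKM of all features was 1132628 in fl4 against 1025917 in the wild type, a factor of 1.104, and sequencing depth is unknown. If the totals were made equal after setting aside the 20 most abundant features, every log2 ratio would shift down by 0.15. Median centring over features of at least 1 FPKM in both libraries would instead shift them down by 0.07. In a bulk tissue, fewer cells of a type and less RNA per cell cannot be told apart.

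The 305 abundant features carried 40.8% of the total FPKM of fl4 and 40.01% of that of the wild type. The 294 features above 0 in both libraries summed to 390363 FPKM in fl4 against 410439 in the wild type, 34.5% and 40.01% of the totals, a log2 ratio of -0.07. The 11 features with a wild-type value of 0 added 71997 FPKM in fl4, 6.36% of its total, and turned the log2 ratio of the sums to 0.17. The shares were close only with these features counted. Among the 294, 219 reached 300 FPKM in both libraries, 57 in fl4 alone and 18 in the wild type alone. Across these 294 features log2 FPKM correlated between the libraries with a Pearson r of 0.902 and a Spearman rho of 0.830. Features share the 2 libraries and were selected on their level, so these values are descriptive.

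Among features above 0 in both libraries, the 10 with the highest mean level summed to 142227 FPKM in fl4 against 179957 in the wild type (log2 ratio -0.34), and 8 of the 10 were lower in fl4. Of these 10, 5 lay in clusters, groups of abundant features whose spans follow each other within 100 kb, that also hold a feature with a wild-type value of 0, and all 5 were lower in fl4. The 5 outside such clusters were 3 lower and 2 higher, and summed to 96694 FPKM in fl4 against 103541 in the wild type (log2 ratio -0.10). The highest fl4 value of the table, 40770.1 FPKM, belongs to a feature with a wild-type value of 0 and is not among the 10. The other 284 summed to 248135 and 230482 FPKM, a log2 ratio of 0.11, which the scaling to equal totals turns to -0.05. Median centring, with its smaller shift of 0.07, leaves it above 0. The 10 features held 36.4% of the summed FPKM of the 294 in fl4 and 43.8% in the wild type.

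The feature at chr6:44381572-44382522, with a span of 951 bp, led the wild type with 37499.8 FPKM and stood at 34373 in fl4, where it ranked 2. Next came a feature at chr2:183342460-183343536 with 24571 FPKM in fl4 against 31420.5 in the wild type (log2 ratio -0.35). These features lay in different places of the genome and both were within 1.5-fold. On chromosome 4, a feature at chr4:21312309-21313388 stood at 11559 FPKM in fl4 against 21181 in the wild type, 1.83-fold lower in fl4. A feature at chr4:29922222-29923189 had 12618.5 FPKM in fl4 against 10202 in the wild type, 1.24-fold higher. The remaining high feature with more in fl4 was at chr6:121390344-121391179, with 13572 FPKM against 3237, 4.19-fold higher, which moved it from rank 21 in the wild type to rank 5 in fl4. The other 5 of the 10 lay in clusters described further on. Of the 10, 50 and 100 highest abundant features of each library, 6, 38 and 84 were common to both lists.

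**Figure D1:**
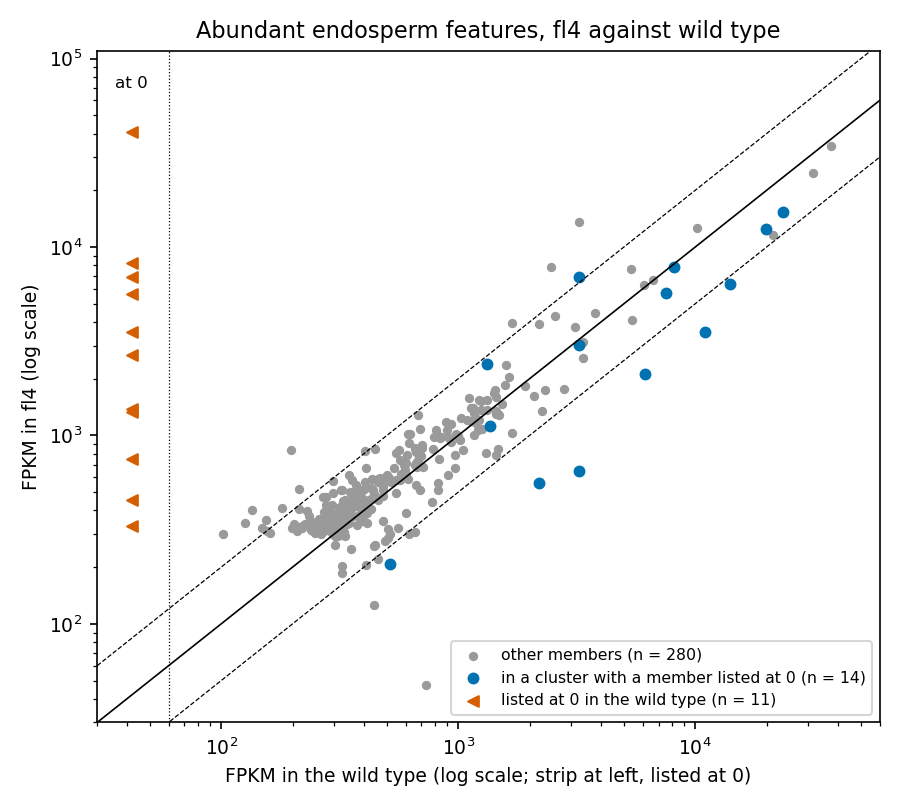
FPKM of the 305 abundant features in the wild type (horizontal, log scale) and in fl4 (vertical, log scale), 1 point per feature. The solid line marks equality and the dashed lines 2-fold differences; most points lie between the dashed lines, the 11 features with a wild-type value of 0 stand in the strip at left, and 12 of the 14 features that share a cluster with them lie below equality.

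Of the 294 abundant features above 0 in both libraries, 222 (75.5%) lay within 1.5-fold, where the background was 83.9%. At least 2-fold higher in fl4 were 13 (4.42%), where the background was 3.34% of the 34044 features that had a span of at least 300 bp, 1 FPKM or more in one of the libraries and values above 0 in both. At least 2-fold lower were 11 (3.74%), where the background was 2.64%. The rule admits a feature on its higher library alone, and part of both counts entered only through the library where they are high. Among these are the largest differences in each direction, with 196 FPKM in the wild type and 47.2 FPKM in fl4 in the lower library. The shares are therefore description only. The median log2 ratio, taken as log2((FPKM + 1)/(FPKM + 1)), was 0.17 with quartiles of -0.07 and 0.38, and that of the background features was 0.07. The added 1 FPKM narrows ratios at low levels, and 20271 of the 34044 background features reached only 1 to 10 FPKM in the higher library. The background shares and median are thus not a like measure. At 100 to 300 FPKM in the higher library, where the added 1 FPKM matters little, 714 of 838 features lay within 1.5-fold. Ratios above 0 were found for 201 of the 294 (68.4%), where the background was 59.0%. The share was 52.2% at 1 to 10 FPKM in the higher library and 68.6% at 10 to 100 FPKM. It was 77.6% at 100 to 300 FPKM, so the abundant features showed no excess over the features nearest in level. After that scaling to equal totals, the median of the abundant features was 0.01 and 151 of 294 (51.4%) were above 0. The background median was then -0.06 with 40.9% above 0, and at 100 to 300 FPKM 477 of 838 ratios were above the shift. The 2-fold differences of the abundant features were then 10 higher and 14 lower, where the background was 2.55% and 3.18%. With median centring the median of the abundant features was 0.10 and 184 of the 294 were above 0. By 2-fold or more 12 were then higher and 12 lower, and background shares were not worked out for this scaling.

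The features above 0 in both libraries were also divided by level. Among 131 whose higher value was 300 to 500 FPKM, 99 were higher in fl4 and the median log2 ratio was 0.19. From 500 to 1000 FPKM 58 of 80 were higher, with a median of 0.22, and from 1000 to 3000 FPKM 32 of 56, with a median of 0.08. At 3000 FPKM or more 12 of 27 were higher and the median was -0.10. Less the shift of 0.15, the 4 medians were 0.04, 0.06, -0.07 and -0.26, in the same order. Of the 27 features of the highest class, 10 lay in the clusters that hold a feature with a wild-type value of 0, and 9 of these 10 were lower in fl4. The other 17 were 11 higher and 6 lower, with a median of 0.23, so the lower balance of this class did not hold outside those clusters. Less the shift of 0.15 this median was 0.08, and 9 of the 17 were above the shift, so the balance was then about even. The split by these clusters was chosen after the data were seen. With the 5 features of wild-type value 0 counted, 17 of 32 were higher in fl4. From the lowest to the highest of these classes the SD of the log2 ratio over features was 0.47, 0.71, 0.49 and 0.99. A 2-fold difference was seen in 8 of 27 features of the highest class (29.6%) and in 1 of 56 (1.79%) of the class below it, where the background was 5.98%. In the highest class outside those clusters 3 of 17 differed 2-fold, all higher in fl4. In the class of 100 to 300 FPKM, just under the limit, 40 of 838 features (4.77%) differed 2-fold, 23 higher and 17 lower, with a median of 0.19.

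**Figure D2:**
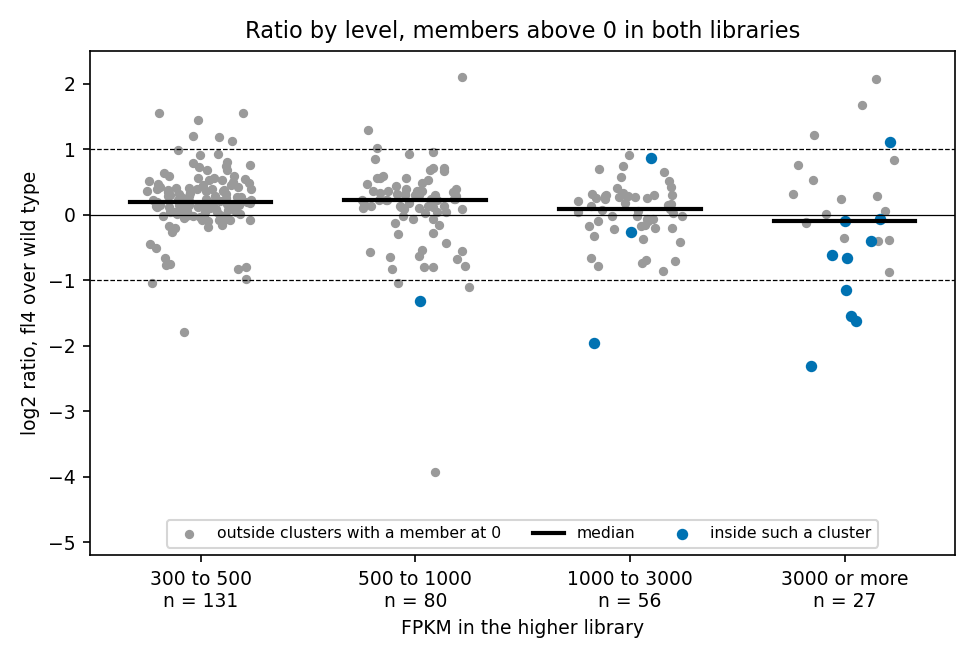
Log2 ratio of fl4 over wild type (vertical) for the 294 abundant features above 0 in both libraries, in 4 classes of FPKM in the higher library (horizontal, points spread sideways at random). Black bars are medians, at 0.19, 0.22, 0.08 and -0.10, the last of which is 0.23 without the blue points; dashed lines mark 2-fold, and the blue points, features in a cluster that holds a member listed at 0, include 6 of the 11 features at least 2-fold lower.

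Of the 11 features at least 2-fold lower in fl4, 6 lay in a pair of clusters on chromosomes 4 and 7, and 9 had a span of their own. The largest difference was at chr7:6356092-6357279, with a span of 1188 bp, which stood at 47.2 FPKM in fl4 against 732 in the wild type, 15.2-fold lower. It is the only abundant feature there, but its neighbours differed alike. The feature at chr7:6350397-6352152 had 2.18 FPKM in fl4 against 27.4 in the wild type (log2 ratio -3.16). That at chr7:6352734-6354049 had 1.19 and 16.3 FPKM, a log2 ratio of -2.99. All 3 neighbouring features were thus far lower in fl4, though their wild-type levels were far apart. On chromosome 8, the feature at chr8:109163216-109164387 stood at 126 FPKM in fl4 against 439 in the wild type, 3.46-fold lower. The remaining 3 of the 11, on chromosomes 3, 6 and 10, had log2 ratios between -1.10 and -1.04.

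The 13 features at least 2-fold higher were scattered over 7 chromosomes. The largest ratio was at chr1:287062938-287065014, with a span of 2077 bp, which stood at 842 FPKM in fl4 against 196 in the wild type, 4.27-fold higher. It ranked 121 in fl4 against 527 in the wild type. The feature of chromosome 6 with 13572 FPKM came second, and its neighbours within 20 kb reached at most 12.7 FPKM. A feature at chr4:29933782-29935053 followed, with 7809 FPKM in fl4 against 2461 in the wild type, 3.17-fold higher.

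Lower down, the feature at chr10:87270037-87270963 stood at 399.9 FPKM in fl4 against 135 in the wild type, 2.94-fold higher. At chr1:56160676-56162858 the values were 300.4 and 102 FPKM, 2.92-fold higher, and an adjacent feature at chr1:56158435-56160570 had 10.5 and 2.64 FPKM, a log2 ratio of 1.66. A feature at chr3:100803097-100806667 had 342 FPKM in fl4 against 126 in the wild type, 2.71-fold higher. These 3 reached 300 FPKM in fl4 alone. A feature at chr4:133103719-133107109 stood at 520.1 FPKM in fl4 against 213 in the wild type, 2.43-fold higher, and the feature at chr9:144385600-144386370 at 3941 and 1691 FPKM, 2.33-fold higher. The other 5 had log2 ratios of 1.02 to 1.20. Of these, the features at chr1:32051837-32054795, chr5:5245811-5249187 and chr6:150509781-150519705 also reached 300 FPKM in fl4 alone, with 154, 149 and 181 FPKM in the wild type.

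Part of the abundant features lay close together. The 305 features fell on 281 distinct spans, and 54 features (17.7%) formed 17 clusters of at least 2 spans in which the next span starts within 100 kb. In 6 of these clusters there were 3 or more features. No clustered share was worked out for other features, so the 17.7% is not read as a trait of abundant features. The median distance to the nearest other span was 3.38 kb for the 281 spans and 2.67 kb for 30277 other spans. All 11 features with a wild-type value of 0 lay on 6 spans in 4 clusters, on chromosomes 4 and 7. An exact 0 in such a table can be a failed estimate, so no fold is given for them. Near-identical copies can exchange reads, and the part of such exchange in the values of these clusters was not tested.

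The first cluster ran over 94.1 kb from chr4:5078342 to 5172399 with 6 features on 5 spans. Its 4 features above 0 in both libraries were all lower in fl4. At chr4:5078342-5079419 fl4 had 561 FPKM and the wild type 2184, 3.89-fold lower. At chr4:5089368-5090254 the values were 3546 and 10982 FPKM, 3.10-fold lower, and at chr4:5140554-5141628 2109.96 and 6165 FPKM, 2.92-fold lower. At chr4:5153162-5154479 they were 649.9 and 3241 FPKM, 4.98-fold lower. The last span, chr4:5167196-5172399, is listed for 2 features, with 3525.5 and 2676 FPKM in fl4 and 0 for both in the wild type. Without this span the cluster summed to 6867 FPKM in fl4 against 22573 in the wild type, 3.29-fold lower, and with it to 13069 and 22573 FPKM, 1.73-fold lower. The direction held either way. The 3 other features listed inside the cluster were low, and the highest of them, at chr4:5081479-5082435, had 3.81 FPKM in fl4 against 18.3 in the wild type.

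The second cluster, 344 kb further on, spanned 24.4 kb from chr4:5516522 to 5540927 with 8 features on 4 spans of 2 features each. On the first span, chr4:5516522-5518566, one feature stood at 6958 FPKM in fl4 against 3222 in the wild type, 2.16-fold higher. The other stood at 3016 and 3239.8 FPKM (log2 ratio -0.10). All 6 features of the other 3 spans had wild-type values of 0. In fl4 those on chr4:5530749-5531969 stood at 6925 and 329 FPKM. Those on chr4:5535143-5536416 stood at 5606 and 452 FPKM, and those on chr4:5539788-5540927 at 1389 and 1333 FPKM. The cluster summed to 26009 FPKM in fl4 against 6461 in the wild type, and without the 6 features to 9974 and 6461 FPKM, a factor of 1.54. The sum of its abundant features was higher in fl4 either way, opposite to the first cluster. Without the 6 features this rested on the feature that was 2.16-fold higher. Features below the limit just before the start of the cluster were lower in fl4. Their log2 ratios were -3.95 at chr4:5511244-5511511 and -2.90 at chr4:5509115-5509975. The feature at chr4:5503672-5508706 was listed at 0 in fl4 and at 2.15 FPKM in the wild type.

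The cluster of chromosome 7 was the largest in summed level, with 8 features on 8 spans over 199.8 kb from chr7:18744942 to 18944704. It held 7.64% of all FPKM of fl4 and 6.69% of that of the wild type. Its features at chr7:18744942-18745668 and chr7:18768581-18769307, each with a span of 727 bp, differed by 1.59-fold and 1.53-fold. The former stood at 12482 FPKM in fl4 against 19799.6 in the wild type. The latter stood at 15371 and 23478 FPKM. Both were lower in fl4 by less than 2-fold.

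Further along, the feature at chr7:18778881-18779606 went the other way, with 2409 FPKM in fl4 against 1319 in the wild type, 1.83-fold higher. At chr7:18856738-18857460 fl4 had 6345 FPKM and the wild type 14030.2, 2.21-fold lower. The next feature, at chr7:18866466-18867189, had the highest value of the whole table in fl4, 40770.1 FPKM, and a wild-type value of 0. It made up 8.82% of the fl4 sum of all 305 abundant features. Its neighbour at chr7:18869058-18869387, a span of 330 bp, had 207 FPKM in fl4 against 515 in the wild type, 2.48-fold lower. The last features were at chr7:18912148-18914037, with 1129 and 1361 FPKM, and at chr7:18943732-18944704, with 7788 and 8126 FPKM. A further feature on this last span, below the limit, stood at 28.5 FPKM in fl4 against 254 in the wild type (log2 ratio -3.11). Of the 7 features above 0 in both libraries 6 were lower in fl4, and their sums were 45731 FPKM in fl4 against 68629 in the wild type, 1.501-fold lower. With the feature listed at 0 the fl4 sum was 86501 FPKM and the direction turned.

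A smaller cluster of chromosome 7 had 3 features on 2 spans. The feature at chr7:120173850-120175165 stood at 5699 FPKM in fl4 against 7507 in the wild type, 1.32-fold lower. The span chr7:120200893-120203011, 25.7 kb away, was listed for 2 features with 8239.8 and 751 FPKM in fl4 and 0 for both in the wild type. The 14 features above 0 in both libraries in the 4 clusters that hold a feature listed at 0 had a median log2 ratio of -0.64, with 12 of 14 lower in fl4. The 280 abundant features elsewhere had a median of 0.19, with 81 lower, and their sums differed by less than the shift of 0.15, at 322091 FPKM in fl4 against 305269 in the wild type. Outside these clusters 12 features (4.29%) were 2-fold higher and 5 (1.79%) were 2-fold lower, where the backgrounds were 3.34% and 2.64%. Those backgrounds are mostly of lower level and not a like measure. In both directions together the share was 6.07% outside these clusters. At 100 to 300 FPKM it was 4.77%, with 23 of 838 features higher and 17 lower.

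**Figure D3:**
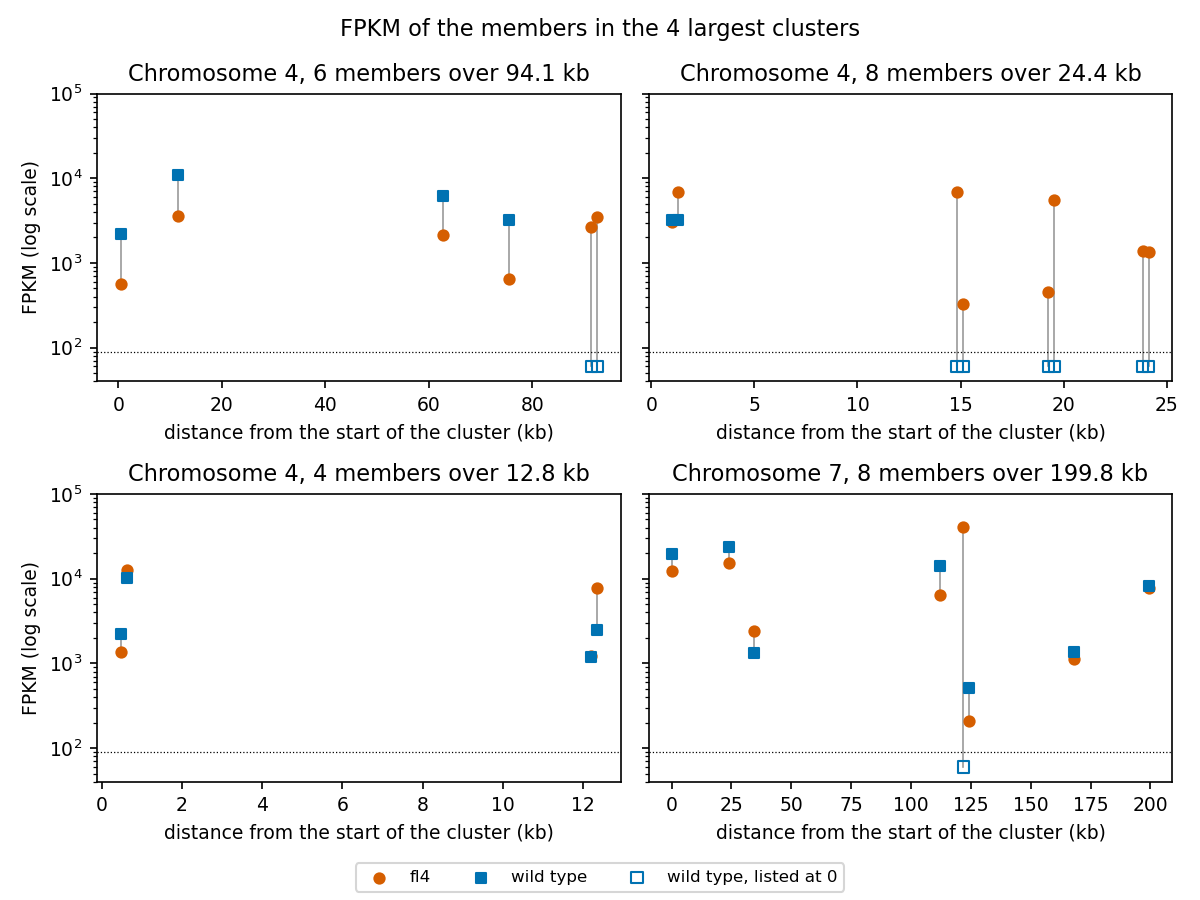
FPKM (log scale) of each abundant feature in fl4 (orange circles) and the wild type (blue squares) against distance from the start of the cluster, in the 4 clusters with 4 or more features on more than 1 span; features on 1 span are drawn slightly apart, and open squares below the dotted line are features listed at 0. In the first cluster of chromosome 4 the 4 features above 0 in both libraries are lower in fl4 by 2.92-fold to 4.98-fold, and in the cluster of chromosome 7 the value of 40770.1 FPKM in fl4 has a wild-type value of 0.

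In the other clusters with 3 or more features no feature was listed at 0. The cluster from chr4:29922222 to 29935053 held 4 features on 2 spans and summed to 22999 FPKM in fl4 against 16110 in the wild type, a factor of 1.43. The cluster of chromosome 6 from chr6:10106754 to 10168264 held 3 features over 61.5 kb, all lower in fl4. They stood at 276, 669 and 298 FPKM in fl4 and at 489, 970.0 and 516 FPKM in the wild type. The log2 ratios ran from -0.82 to -0.54, so none reached 2-fold. A pair of neighbouring features on chromosome 2, at chr2:221313309-221325791 and chr2:221331508-221332807, were listed with the same values, 325.8 FPKM in fl4 against 315.8 in the wild type.

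Abundant features often shared a span with another feature. Of the 305, 139 (45.6%) were on a span listed for more than 1 feature, against 26.3% of the 34019 other features with at least 1 FPKM and a span of at least 300 bp. Among those other features the share rose with level, from 25.4% at 1 to 10 FPKM to 27.0% at 10 to 100 FPKM and 36.9% at 100 to 300 FPKM. It is therefore not particular to the abundant features, which in the next sentence are the 139. The 139 abundant features lay on 115 spans, and in 93 of these only 1 feature was abundant. The highest feature of a span held a median of 90.5% of the span's FPKM in fl4 and 90.7% in wild-type endosperm, so 1 feature usually carried most of the level.

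On 17 spans 2 or more features were abundant and above 0 in both libraries. In 13 of them the log2 ratios of these features lay within 0.26 of each other. At chr10:63613517-63622627, 1278 FPKM in fl4 against 679.6 in the wild type and 822 against 405 FPKM gave log2 ratios of 0.91 and 1.02. At chr1:271106010-271114338 3 abundant features had log2 ratios of 0.27 to 0.32, and at chr9:11496010-11502772 3 had log2 ratios of -0.06 to 0.08. The features of these loci were close to each other whether the locus was higher in fl4 or nearly even.

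In the other 4 spans the abundant features stood 0.86 to 1.63 apart, and all 4 lay on chromosome 4. Chromosome 4 held 7 of the 17 spans, and the gaps of its other 3 were 0.11 to 0.13. Features below the limit were left out here, and some on other chromosomes also stood far from an abundant feature of their span. The log2 ratios were -1.04 and 0.27 at chr6:86337476-86341886, and -1.04 and 0.24 at chr10:113456551-113459743. At chr7:18943732-18944704 they were -0.06 and -3.11. Such pairs were not counted, so wide gaps are not read as particular to chromosome 4. At chr4:29933782-29935053 the feature that was 3.17-fold higher shared its span with one of 1226 FPKM in fl4 against 1199.6 in the wild type. At chr4:29922222-29923189 the feature of 12618.5 FPKM in fl4 was 1.24-fold higher, while the other was lower, with 1346 against 2247 FPKM, a log2 ratio of -0.74. At chr4:133103719-133107109 the other feature stood at 367 and 272 FPKM (log2 ratio 0.43). The fourth is the first span of the second cluster of chromosome 4, described above. Whether reads were divided between the features of a span in the same way in both libraries was not tested.

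**Figure D4:**
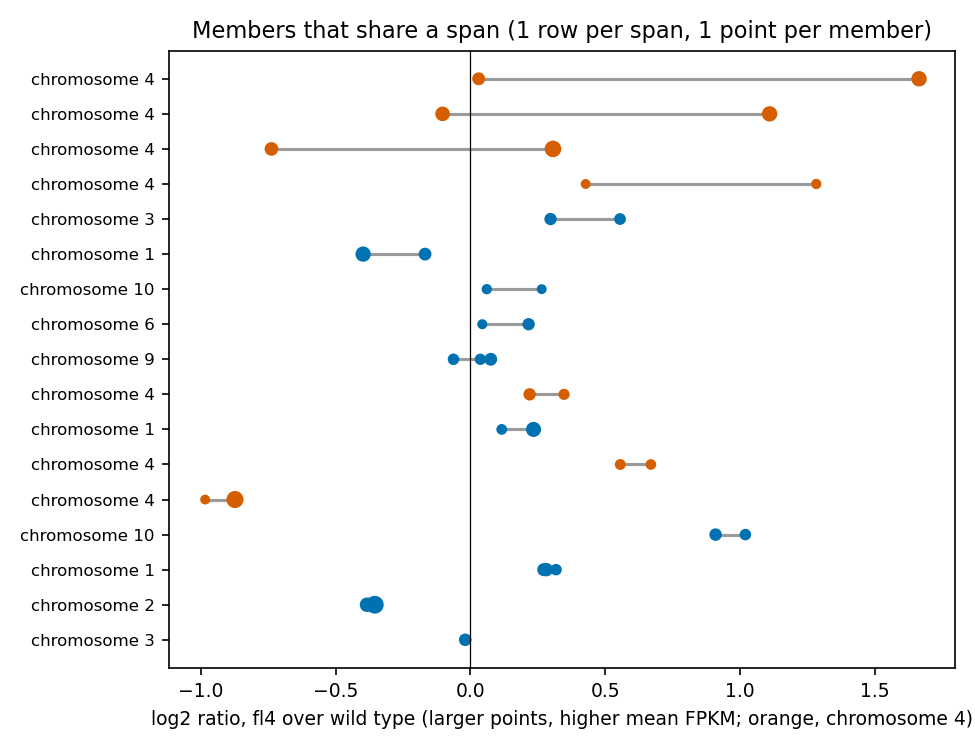
Log2 ratio of fl4 over wild type (horizontal) of abundant features that share a span, for the 17 spans with at least 2 of them above 0 in both libraries (1 row per span, ordered by the gap between its features; orange, chromosome 4). The 4 spans with a gap of 0.86 or more are among the 7 on chromosome 4, and the other 13 have gaps of at most 0.26.

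The longest spans held moderate levels and the highest levels were on short ones. Of 32 abundant features with 3000 FPKM or more, 25 had a span under 2000 bp, against 121 of all 305 (39.7%) and 33.9% of other features. The 21 features with spans of at least 10000 bp above 0 in both libraries reached at most 1599.6 FPKM in fl4. Of these, 0 differed 2-fold, where the share was 8.16% of all abundant features above 0 in both libraries and 5.98% of the background. With only 21 features, the count of 0 is not read as a trait of long spans. The longest span was 191582 bp. The median log2 ratio was -0.03 for 39 features with spans of 600 to 1000 bp, 0.09 for 64 of 1000 to 2000 bp, 0.24 for 113 of 2000 to 5000 bp and 0.20 for 46 of 5000 to 10000 bp. Less the shift of 0.15 these medians were -0.18, -0.06, 0.09 and 0.05. Span and level go together in these features, and their parts were not separated.

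By chromosome, the abundant features were most numerous on chromosome 1, with 50, and chromosome 4, with 46, and fewest on chromosome 10, with 16. Relative to features with at least 1 FPKM and a span of at least 300 bp, the numbers were 12.9 per 1000 on chromosome 4, 12.4 on chromosome 7, 12.2 on chromosome 6 and 9.46 on chromosome 1, down to 5.65 on chromosome 2. Over features above 0 in both libraries, the sums were lower in fl4 on chromosomes 2, 4 and 7 among the numbered chromosomes. With equal totals those of chromosomes 5, 8 and 10 also fell below 0, at log2 ratios of only -0.03, -0.03 and -0.01. Before scaling they were 0.12, 0.12 and 0.15, above the median-centring shift of 0.07. Chromosome 7 summed to 67409 FPKM in fl4 against 90467 in the wild type (log2 ratio -0.42), and chromosome 4 to 73286 and 88152 FPKM, a log2 ratio of -0.27. The median log2 ratio of the features was 0.14 on chromosome 7 and 0.10 on chromosome 4, so sum and median differed in sign there. With equal totals the medians were -0.01 and -0.05 and the sums -0.58 and -0.42 on chromosomes 7 and 4, so the contrast in sign was gone. Median centring shifts by 0.07, less than either median, so with it the contrast in sign stays. All 11 features with a wild-type value of 0 are on these chromosomes, and with them the fl4 sums were 117170 FPKM on chromosome 7 and 95523 FPKM on chromosome 4. Both directions then turned, to log2 ratios of 0.37 and 0.12, of which the latter is smaller than the shift of 0.15. On chromosome 2 the sum had a log2 ratio of -0.21 and the median feature 0.19, or -0.36 and 0.03 with equal totals. One abundant feature was on a sequence of unknown chromosome, with 556 FPKM in fl4 against 826 in the wild type.

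At the limits of the rule, the features just inside 300 FPKM reached 300.1, 300.4 and 302 FPKM in the higher library, and those just outside 299.8, 297 and 297 FPKM. The shortest spans inside were 306, 330 and 330 bp, and the longest outside were 297, 256 and 247 bp. The feature of 297 bp, at chr10:74687317-74687613, stood at 2301 FPKM in fl4 against 3022 in the wild type.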

How the data were processed

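Endosperm RNA was sequenced in 1 library of the fl4 mutant and 1 of the wild type. The deposited values are FPKM, computed by the authors, per the file headers. The submitters' processing notes name Bowtie 0.12.2. Quantification program, build, annotation, filters and any pooling of replicates are not stated in the sources used here. Depth is unknown, so no counting interval is given.

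Features were matched between files by position, and 8 with unreadable positions (none above 53.6 FPKM) were left out. Ratios are log2((FPKM + 1)/(FPKM + 1)) of fl4 over wild type, and at least 2-fold is a rule of size, not a test. Clusters join spans within 100 kb. Named are the 10 features highest by mean, the 8 largest and 8 smallest ratios, those listed at 0, clusters of 3 or more, and features at the limits; other named features, such as neighbours and features on shared spans, were chosen after their values were seen. The features and the comparisons were chosen with earlier results of these data known. Calling and clustering were tested on simulated data. Python 3.11.15, numpy 2.4.6, pandas 2.3.3, scipy 1.17.1 and matplotlib 3.10.9 were used.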

Additional observations from a re-analysis of the deposited data

Results flagged for a closer look

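Signal was present outside the abundant features, in 90 features of at least 300 FPKM whose span was under 300 bp (76 to 297 bp). Their summed level was 55146 FPKM in fl4 against 47287 in the wild type. Of these, 88 were above 0 in both libraries, with a median log2 ratio of 0.21, and in fl4 11 were higher and 6 lower by 2-fold or more. The other 2 had a wild-type value of 0. With 1 library per genotype the difference was not tested. No background share was worked out for spans under 300 bp, so the 2-fold counts are not read as an excess.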

How the results depend on the processing

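Of 42 alternative values, 27 stayed within 1.5 times the count or within 0.1 of the log2 ratio, 13 moved further and 2 reversed. The 13 features at least 2-fold higher and 11 lower became 21 and 17 with a limit of 200 FPKM, 24 and 17 with no limit on the span, and 39 and 33 at a 1.5-fold threshold, and the higher ones became 7 with a limit of 500 FPKM. Without the clusters that hold a feature listed at 0, an alternative chosen after the data were seen, 5 were lower. The limits change which features are admitted, the 1.5-fold threshold changes the call on the same 294 features, and 6 of the 11 lower features lie in the clusters left out. With totals made equal after setting aside the 20 most abundant features, the split was 10 higher and 14 lower. The median log2 ratio went from 0.17 to 0.014, and that of the sums from -0.07 to -0.23. Median centring gave 0.10 for the median and -0.14 for the sums. The log2 ratio of the sums reversed to 0.17 with features listed at 0 in one library, and to 0.077 without their clusters. The first adds fl4 values alone, and the second leaves out 14 features that summed to 68272 FPKM in fl4 against 105170 in the wild type. With limits of 200 and 500 FPKM, 223 and 78 features were on shared spans, and with 200 FPKM 87 were in clusters. No paired analysis was possible because there is 1 library per genotype, and no replicate could be left out.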

Other observations

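Features of near-equal span recurred among the abundant features. Of 104 features with a span of 723 to 727 bp, 8 were abundant, 5 in the large cluster of chromosome 7 and 3 on chromosome 1. Those of chromosome 1 at chr1:161774739-161775462 and chr1:161990940-161991666 stood at 7666 and 6259 FPKM in fl4 and at 5334 and 6048 FPKM in the wild type, the former 1.44-fold higher in fl4 and the latter 1.03-fold. The third, at chr1:3000160-3000884, stood at 249 and 353 FPKM. This range of spans was chosen after the values were seen. No share of abundant features was worked out for other ranges, so the count is not read as a trait of these spans.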
